A study of Mus musculus with 46 samples.

Results

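The genes described here are 10 antioxidant genes built around the transcription factor NRF2: its own gene Nfe2l2, its inhibitor Keap1, and the target genes Hmox1, Nqo1, Gclc, Gclm, Srxn1, Txnrd1, Gsr and Gpx4. They were chosen by symbol, and all 10 symbols were found once among the 55487 genes in each deposited table. Counts of RNA were available for 46 mouse libraries in 11 groups from 3 experiments, 33 of them from pancreatic islets and 13 from liver. The deleted genes serve mitochondria. TFAM packages mitochondrial DNA and takes part in its transcription, and CLEC16A takes part in mitophagy. The outer membrane GTPases encoded by Mfn1 and Mfn2 fuse the organelles.

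Islets labelled Tfam control numbered 5 libraries from females and 3 from males, and islets labelled Tfam KO 4 from females and 2 from males. Islets labelled Clec16a control numbered 4 on the diet RFD and 6 on HFD, and islets labelled Clec16a KO numbered 4 on RFD and 5 on HFD. The labels write out neither diet and give no sex for these 19 libraries. The livers were labelled control (6), Mfn DKO (4) and Tfam KO (3), and their descriptions carry the letters AAV. Islets spent a night in culture before RNA was taken, so all islet groups share that step, while livers were frozen. Strain, age, the deleting enzyme and the cells that drive it are not given in the sources used here, and neither is whether animals were pooled. Libraries are labelled as biological replicates, and p-values measure the spread between them.

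NRF2 is made continuously and, in unstressed cells, is held by KEAP1, an adaptor of a ubiquitin ligase that sends it for degradation. Oxidants and electrophiles modify cysteines of KEAP1, NRF2 escapes, pairs with a small MAF protein and binds antioxidant response elements near its target genes. BACH1 competes for the same elements, also at Hmox1. Pancreatic beta cells are known for low levels of several antioxidant enzymes, whereas the liver is a major site of glutathione synthesis and detoxification.

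On GRCm38 (GENCODE M21) all 10 are protein-coding genes. Hmox1 lies at chr8:75093621-75100589 and Srxn1 at chr2:152105516-152111376, both on the plus strand. Gclc lies at chr9:77754535-77794485 and Gclm at chr3:122245557-122270732, also on the plus strand, and Nfe2l2 at chr2:75675513-75704641 and Keap1 at chr9:21229730-21239361 on the minus strand. Counts cover whole genes, so no exon or UTR is singled out.

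RefSeq promoter windows on GRCm38.p6, 250 bases before to 50 bases after a transcription start, were matched by symbol for 7 of the 10 genes: Nfe2l2, Keap1, Nqo1, Gclm, Txnrd1, Srxn1 and Gpx4. The core of the antioxidant response element, TGACNNNGC on either strand, occurred in a window of 4 of these 7 genes, beside 14% of the 27025 genes in the table. Genes with more windows have more places to match, and the 7 genes held 12 windows, 4 of them of Gpx4 and 3 of Txnrd1. Counted per window, the core was in 12.4% of all 32851 windows. The 4 stretches are shown because they match this core, and whether NRF2 acts through them was not measured. Forms of the element with other letters were not searched. Such forms are neither counted nor marked, also where they would overlap the AP-1 matches below. Capitals mark the match, which includes any overlap with other motifs, and each stretch reads 5′ to 3′ on the strand of its gene.
Nfe2l2, chr2:75704885-75704913, minus strand: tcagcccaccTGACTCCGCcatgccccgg
Srxn1, chr2:152105542-152105570, plus strand: gcagtgggcaGCTAGGTCAgagtgagaca
Gclm, chr3:122245413-122245441, plus strand: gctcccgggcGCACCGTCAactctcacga
Txnrd1, chr10:82859104-82859132, plus strand: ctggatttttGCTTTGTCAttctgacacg
The match reads TGACTCCGC in Nfe2l2, and on the opposite strand TGACCTAGC in Srxn1, TGACGGTGC in Gclm and TGACAAAGC in Txnrd1. It began 240 bases before the start of Nfe2l2, 134 before that of Gclm and 28 bases after the RefSeq start of Srxn1. In Txnrd1, for which the table holds 3 windows, it began 92 bases before 1 of these RefSeq starts, which lies downstream of the annotated start of the gene at chr10:82833951.

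Srxn1 was also the only one of the 7 genes with the AP-1 motif TGACTCA on either strand, which 5.95% of all genes in the table held. Its upstream stretch is shown because Srxn1 had the largest change of any of the 10 genes in liver, and capitals mark both AP-1 matches, read here from the opposite strand.
Srxn1, chr2:152105274-152105515, plus strand: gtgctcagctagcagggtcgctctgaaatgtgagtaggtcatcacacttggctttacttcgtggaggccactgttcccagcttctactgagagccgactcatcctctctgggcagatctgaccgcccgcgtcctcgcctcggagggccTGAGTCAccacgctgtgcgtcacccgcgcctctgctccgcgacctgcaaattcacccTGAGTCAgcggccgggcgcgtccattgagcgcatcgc
A motif of ATF4 sites, TGATGNAA on either strand, was in the window of none of the 7 genes and of 4.51% of all genes. These matches describe letters and are not measured binding sites.

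Total counts per library ran from 16235173 to 83342809. Tfam RNA was 37.8 to 44.7 CPM in the control islets and 16.0 to 18.9 in the Tfam KO islets, and it was 54.2 to 66.2 in control livers and 13.1 to 15.9 in Tfam KO livers. CPM here are counts divided by the library size after TMM scaling within each experiment, so CPM are not set across experiments. Clec16a RNA did not fall in the Clec16a KO libraries (23.4 to 32.9 CPM, beside 20.9 to 31.8 in controls), so it does not check that genotype. The 9 beta cell markers summed to at least 105869 CPM in every islet library, and the 8 hepatocyte markers to at least 22868 CPM in every liver.

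Some libraries stood apart. Clec16a KO HFD replicate 4 went against its label: Trib3, Gdf15 and Slc7a11, which the other 4 KO HFD libraries held at no less than 58.1, 9.88 and 5.65 CPM, were at 4.69, 0.210 and 0.157 CPM, inside the range of the HFD controls (these marker genes were chosen after their values were seen). The Tfam KO livers differed widely among themselves. The median gene lay 0.326, 0.509 and 0.515 (log2) from the mean of the other libraries of the group in replicates 1, 2 and 3, against 0.175 to 0.252 in the other livers. Their hepatocyte markers summed to 62159, 22868 and 99783 CPM, beside 99781 to 146216 in the controls. Calls of the 10 genes, counts and named genes of the related lists, and correlations are given with and without these libraries; leaving them out for the lists and correlations was chosen after seeing the data.

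**Figure D1:**
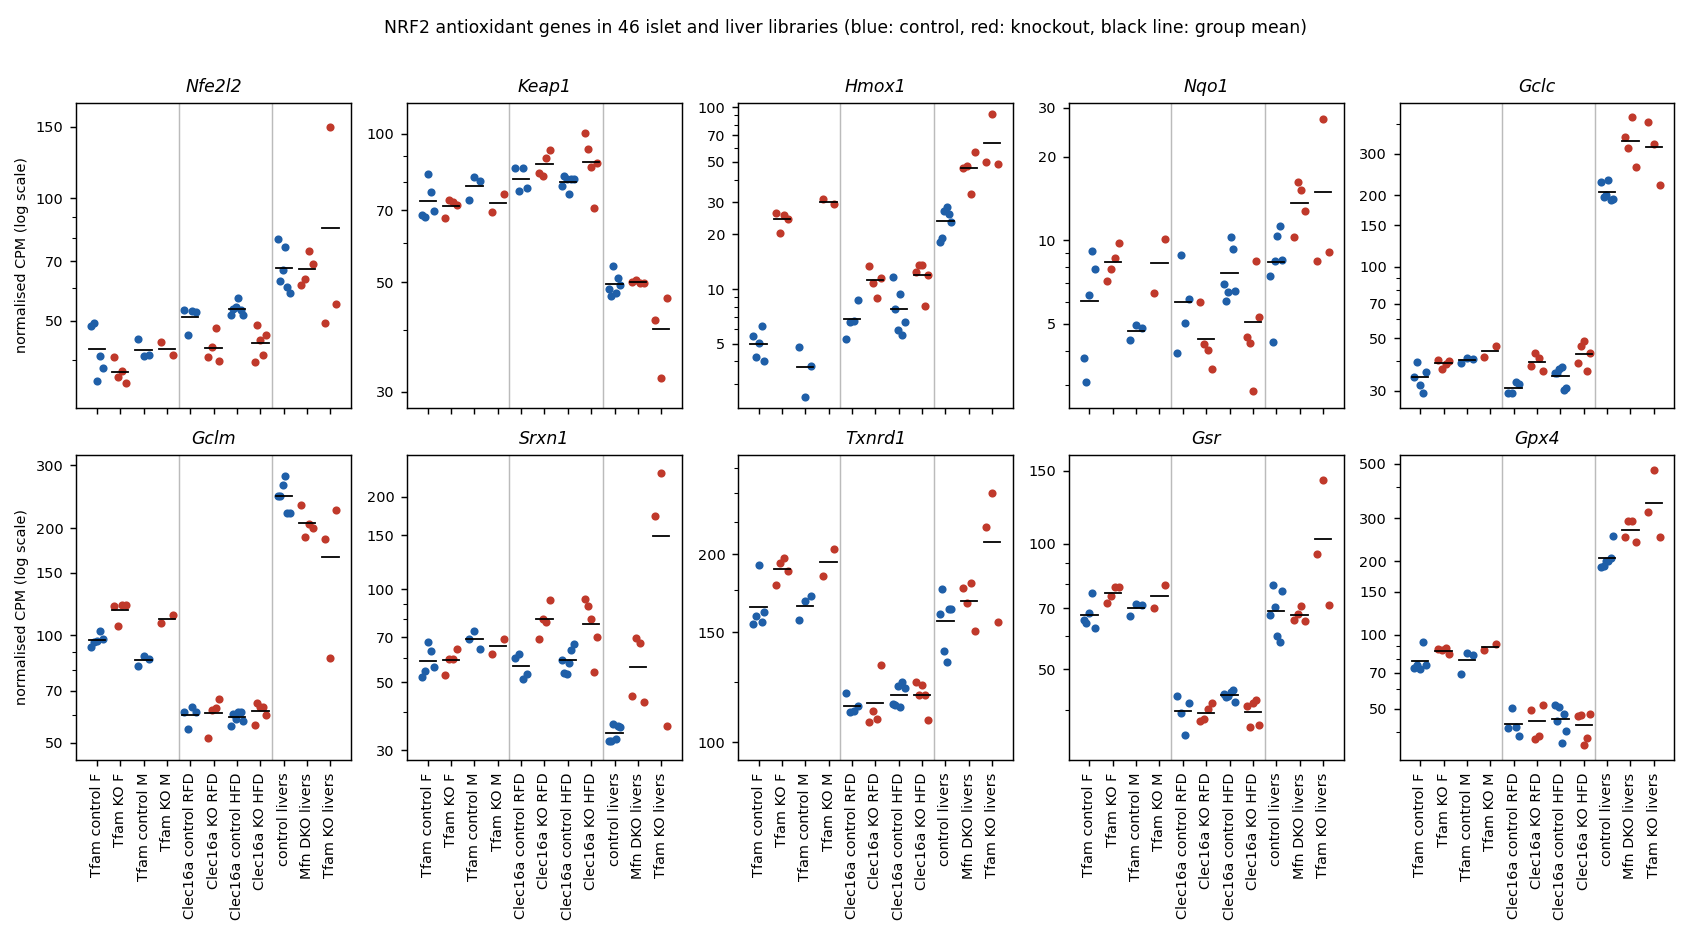
Normalised CPM (log axis, own scale per gene, scaled within each of the 3 experiments that the vertical lines separate) of the 10 genes in each library of the 11 groups, with controls in blue, knockouts in red and group means as black lines. Hmox1 in Tfam KO islets lies above every Tfam control islet, and 1 Tfam KO liver lies far from the others in Nfe2l2, Keap1, Nqo1 and Gclm.

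Within a library, levels of different genes were compared per length, in the authors' TPM. In female Tfam control islets Gpx4, the selenoenzyme that reduces lipid peroxides, was the highest at 94.3 ± 3.83 TPM (SD, n = 5). Gsr, which regenerates reduced glutathione, followed at 51.4 ± 3.42, Txnrd1 (thioredoxin reductase) at 49.1 ± 7.71, Srxn1 (sulfiredoxin, which repairs peroxiredoxins) at 43.5 ± 4.93 and Keap1 at 32.7 ± 3.80 TPM. From Gsr down to Gclc each gene overlapped the next in the order, whereas Gpx4 did not overlap Gsr. Nqo1, a quinone reductase, and Hmox1, which opens the heme ring, were lowest at 7.94 ± 2.85 and 5.96 ± 0.857 TPM.

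Clec16a control islets on RFD held the same genes at both ends of the order, with Gpx4 at 51.8 ± 2.11 and Hmox1 and Nqo1 at 8.17 ± 2.26 and 7.91 ± 2.29 TPM (SD, n = 4). In control livers Gpx4 again led at 256 ± 27.0 TPM (SD, n = 6). It was followed by the glutamate-cysteine ligase subunits Gclc, the catalytic one, at 118 ± 10.7 and Gclm, the modifier, at 83.7 ± 9.25 TPM. Those 3 genes did not overlap each other or Gsr, the next at 53.3 ± 5.60. Hmox1 was at 29.0 ± 5.95 and Nqo1 lowest at 11.6 ± 3.72 TPM in the same livers.

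In Tfam KO islets the RNA of Hmox1 rose about 6-fold, and Gclm and Txnrd1 rose by smaller amounts. Hmox1 and Gclm were higher in every knockout library than in any control. The RNAs of NRF2 itself and of its inhibitor KEAP1 did not pass the test, and their values were close to those of the controls. In all, 3 of the 10 genes were called, each higher, where 20.9% of the 19752 genes tested were called in either direction and 11.6% higher.

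Hmox1 ran from 2.56 to 6.24 CPM in the 8 control libraries, with a median of 4.50, and from 20.4 to 31.2 in the 6 knockouts, with a median of 25.9. Its log2 fold change was 2.54 ± 0.16 (SE), which is 5.83-fold, with an adjusted p of 9.6e-09 by edgeR's quasi-likelihood test with Benjamini-Hochberg adjustment. Leaving out any 1 of the 14 libraries gave 2.44 to 2.62, called each time.

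Gclm ran from 82.4 to 103 CPM in controls (median 94.2) and from 107 to 122 in knockouts (median 117). The groups did not overlap, and the log2 fold change was 0.32 ± 0.05 (adjusted p = 0.00027, edgeR), a 1.25-fold difference. Exons of Gclm overlap Gm17494 on the opposite strand and the pseudogene Gm6061 on the same strand, and the strand setting of the counting is not given in the sources used here, so Gclm counts may include reads of either. The groups of 2 of the 10 genes did not overlap, beside 7.49% of all genes tested.

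Txnrd1 ran from 154.5 to 192 CPM in controls (median 161) and from 178 to 204 in knockouts (median 191). All 6 knockouts exceeded the mean of the controls and 3 exceeded the highest control, female replicate 3. The log2 fold change was 0.21 ± 0.06 (edgeR adjusted p = 0.018), and the call was lost without Tfam KO male replicate 2 (adjusted p = 0.063).

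The other 7 genes did not pass. Nqo1 had the largest estimate among them, 0.59 ± 0.21, with 3.08 to 9.12 CPM in controls, 6.44 to 10.1 in knockouts and an edgeR adjusted p of 0.053. Gclc (0.17 ± 0.06, adjusted p = 0.070), Gsr (0.15 ± 0.05, adjusted p = 0.068) and Gpx4 (0.16 ± 0.07, adjusted p = 0.10) were above the control mean in all 6 knockouts. Srxn1 (-0.02 ± 0.07), Nfe2l2 (-0.11 ± 0.08) and Keap1 (-0.06 ± 0.06) had 95% intervals that included 0. Keap1 exons overlap Gm16754 on the opposite strand.

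Scaling bears on these small differences. The authors' TPM, which have the same sum in each library, put the median of all genes 0.38 (log2) higher in Tfam KO than in control islets, and on that scale Nfe2l2, Keap1 and Srxn1 were 0.26, 0.32 and 0.36 higher, all 3 below that shift. Relative to the shift the TPM ratios of Hmox1 and Gclm were 2.55 and 0.33. The same median was 0.04 and 0.19 higher in Clec16a KO islets on RFD and HFD, 0.32 in Mfn DKO livers and 0.66 in Tfam KO livers, and all fold changes given here are relative to it through TMM.

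Bulk RNA does not separate fewer cells of a type from less RNA per cell. All 9 beta cell markers were called lower in Tfam KO islets, and their sum ran from 105869 to 141592 CPM in knockouts against 188648 to 295437 in controls; its part in the differences above was not tested. The 10 macrophage markers, of cells rich in Hmox1, summed to 132 to 208 CPM in knockouts and 120 to 219 in controls, with 1 called higher. Of 7 fibroblast markers tested, 2 were called higher.

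Hmox1 and Gclm were the genes called in each sex. In females Hmox1 was 4.01 to 6.24 CPM in 5 controls and 20.4 to 26.2 in 4 knockouts, a log2 fold change of 2.27 ± 0.16 (adjusted p = 2.0e-07). In males it was 2.56 to 4.78 in 3 controls and 29.2 to 31.2 in 2 knockouts, or 3.02 ± 0.22 (adjusted p = 4.8e-07). Gclm was called in females (0.28 ± 0.06) and in males (0.39 ± 0.08). In each sex these 2 of the 10 genes were called by edgeR, beside 10.8% of all genes in females (6.67% higher) and 8.93% in males (5.24% higher).

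The difference between the sexes did not pass for any gene. Over all genes tested, edgeR called 0 for the interaction of genotype and sex, 1230 had an unadjusted p under 0.05, and between 0 and 36 were called under the other settings. For Hmox1 the change in males exceeded that in females by 0.75 ± 0.27 (unadjusted p = 0.013, adjusted p = 0.69). In males the Gclm call was lost without either knockout library (adjusted p = 0.053 and 0.12).

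**Figure D2:**
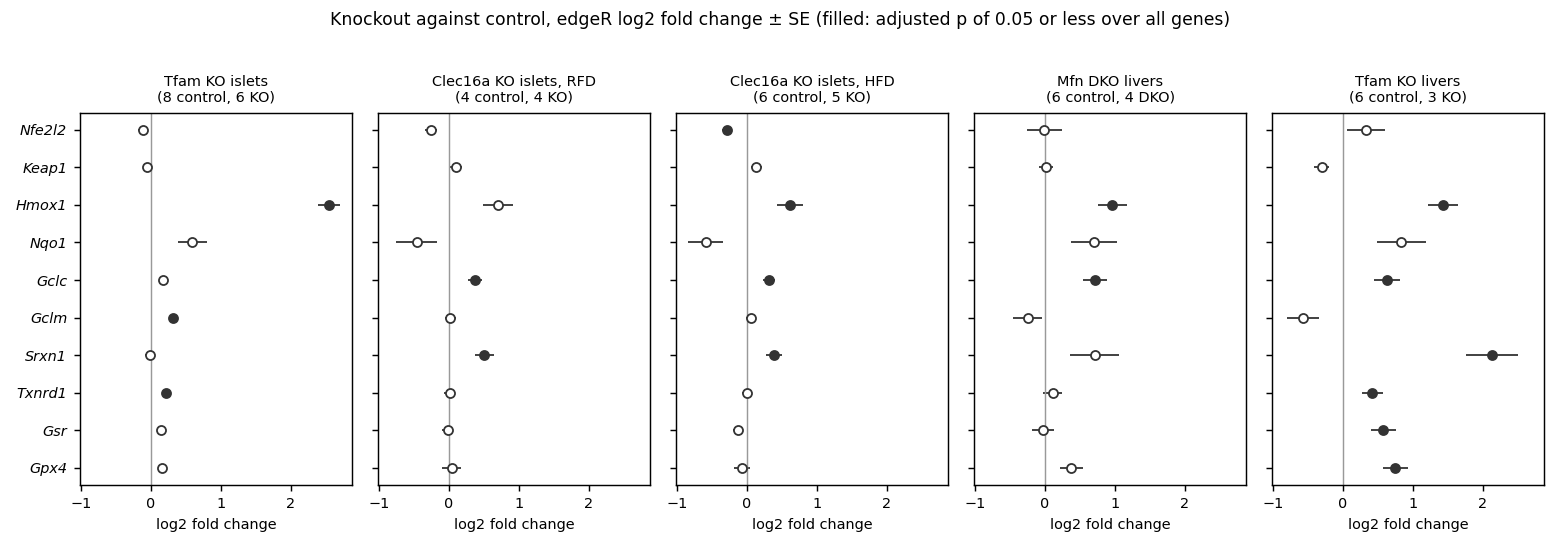
Log2 fold change of each of the 10 genes, knockout against control, with bars of 1 SE (hidden where smaller than the symbol) in the 5 comparisons; filled symbols passed an adjusted p of 0.05 in edgeR. Hmox1 lies right of 0 in all 5 and farthest in Tfam KO islets (2.54), while Srxn1 lies farthest right in Tfam KO livers (2.12).

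Other genes of the pathway were read from lists drawn up for this purpose with earlier results of these data known. The shares called, here and in the other comparisons, describe these lists and are not a test of them. Of 31 further NRF2 targets tested in Tfam islets, 16 were called higher (51.6%) and 1 lower (3.23%), beside 11.6% and 9.29% of all genes tested, with a median log2 fold change of 0.33 beside -0.01 over all genes. The cystine transporter Slc7a11 rose from 0.161 to 0.799 CPM in controls to 4.26 to 8.04 in knockouts (3.64 ± 0.31, adjusted p = 5.0e-07). Htatip2 (0.92 ± 0.09), the glutathione transferase Gstm1 (0.85 ± 0.10) and the ferritin light chain Ftl1 (0.61 ± 0.07) rose too. So did Me1 (0.57 ± 0.07) and G6pdx (0.28 ± 0.07), which supply NADPH, while Prdx1 was at -0.06 ± 0.11.

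Among 16 regulators and partners of NRF2, 4 were called higher (25%) and 1 lower (6.25%) in Tfam KO islets. Nfe2l1, which encodes a relative of NRF2, rose by 0.57 ± 0.05, Sqstm1, whose protein binds KEAP1, by 0.59 ± 0.08 and the competitor Bach1 by 0.52 ± 0.09, while the ubiquitin ligase gene Syvn1 fell by 0.39 (SE 0.08). Of 19 genes of glutathione synthesis and turnover, 9 were called higher (47.4%) and 2 lower (10.5%). Gsto1 (1.81 ± 0.13) and Slc25a39, a mitochondrial glutathione carrier (0.69 ± 0.08), rose, and so did Chac1, which degrades glutathione (1.96 ± 0.34).

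Of 26 other antioxidant enzymes 3 were called higher (11.5%, near the 11.6% of all genes), namely Sesn2 (1.22 ± 0.09), Txnip (2.08 ± 0.18), an inhibitor of thioredoxin, and Cat, the catalase gene (0.73 ± 0.13). Prdx6 fell by 0.31 (SE 0.06). Of 13 genes of selenoprotein synthesis and selenoproteins, 3 were called higher (23.1%) and 4 lower (30.8%). Sephs2, which makes the selenium donor, rose by 0.45 ± 0.07 and Sepsecs, which makes selenocysteine on its tRNA, fell by 0.52 (SE 0.09).

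In Clec16a KO islets on RFD, Gclc and Srxn1 rose by less than 1.5-fold, and the estimate for Hmox1 was larger but did not pass. In all, 2 of the 10 genes were called, both higher, beside 7.52% of the 17254 genes tested (3.99% higher). Nfe2l2 lay lower and Gclm, Txnrd1, Gsr and Gpx4 were close to the controls.

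Srxn1 was 59.8, 61.9, 51.2 and 53.1 CPM in control RFD replicates 1 to 4 and 69.1, 79.9, 78.5 and 92.3 in KO RFD replicates 1 to 4. Gclc was 29.4, 29.3, 32.6 and 32 CPM in the controls and 38.3, 43.3, 41.4 and 36.4 in the knockouts. Hmox1 was 5.30, 6.62, 6.66 and 8.71 CPM in the controls and 13.3, 10.8, 8.97 and 11.4 in the knockouts. For all 3 genes every knockout exceeded every control, as was so for 7.74% of all genes tested. Counted in either direction, groups did not overlap for 15.1% of all genes.

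Log2 fold changes were 0.50 ± 0.14 for Srxn1 (adjusted p = 0.029), 0.37 ± 0.10 for Gclc (adjusted p = 0.031) and 0.70 ± 0.22 for Hmox1 (adjusted p = 0.056). Both calls were close to the threshold. That of Srxn1 was lost without control replicates 3 or 4 or KO replicates 2, 3 or 4 (adjusted p 0.055 to 0.095). That of Gclc was lost without any 1 control or without KO replicates 2 or 3 (adjusted p 0.058 to 0.093). DESeq2's Wald test called 4 of the 10 genes, adding Hmox1 (adjusted p = 0.022) and Nfe2l2 (-0.25, adjusted p = 0.038).

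Nfe2l2 was 53.1, 46.2, 52.8 and 52.4 CPM in the RFD controls and 40.7, 43.1, 47.8 and 39.7 in the knockouts, which overlapped through control replicate 2 and KO replicate 3 (-0.25 ± 0.08, adjusted p = 0.066, edgeR). Nqo1 ran from 3.92 to 8.87 CPM in controls and from 3.42 to 6.0 in knockouts (-0.46 ± 0.29, adjusted p = 0.37). Gclm (0.02), Txnrd1 (0.01), Gsr (-0.02), Gpx4 (0.04) and Keap1 (0.10) had 95% intervals that included 0.

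On HFD, Hmox1, Gclc and Srxn1 rose and Nfe2l2 fell in Clec16a KO islets. In all, 4 of the 10 genes were called, beside 9.57% of the genes tested (5.62% higher and 3.95% lower). The RNA of NRF2 lay lower while those of 3 of its target genes lay higher. Without KO HFD replicate 4, which went against its label, 6 genes were called: Keap1 was added as higher and Nqo1 as lower. Calls over all genes rose as well, to 10.5% higher and 9.53% lower. Replicate 4 was set apart after its values were seen, so no value without it, here or below, is independent of that choice.

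Hmox1 ran from 5.56 to 11.6 CPM in the 6 HFD controls (median 7.18) and was 12.3, 13.5, 13.6, 8.12 and 11.9 in KO replicates 1 to 5. Replicate 4 lay inside the control range and the other 4 knockouts above it. The log2 fold change was 0.61 ± 0.19 (adjusted p = 0.043, edgeR) and, without replicate 4, 0.72 ± 0.18 (adjusted p = 0.0077).

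Srxn1 ran from 53.0 to 66.3 CPM in controls (median 58.4) and was 93.1, 88.4, 80.4, 53.8 and 70.1 in the knockouts, again with replicate 4 alone inside the control range. Its log2 fold change was 0.39 ± 0.12 (adjusted p = 0.038), or 0.50 ± 0.10 without replicate 4 (adjusted p = 0.0010). Gclc ran from 30.2 to 37.8 CPM in controls (median 35.8) and was 39.2, 46.2, 48.9, 36.3 and 43.4 in the knockouts. It changed by 0.31 ± 0.09 (adjusted p = 0.029), or by 0.36 ± 0.08 without replicate 4 (adjusted p = 0.0042).

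Nfe2l2 ran from 51.6 to 56.9 CPM in controls (median 53.2) and was 39.5, 48.9, 44.7, 41.1 and 46.1 in the knockouts. It was the only one of the 10 genes whose HFD groups did not overlap, beside 2.6% of all genes tested. It fell by 0.28 on the log2 scale (SE 0.07, edgeR adjusted p = 0.017), and in this gene replicate 4 lay with the other knockouts.

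With replicate 4 kept, these calls too depended on single libraries. Hmox1 kept its call without control replicates 1 or 4, and Srxn1 without control replicate 6 or KO replicate 5; leaving out any other library but replicate 4 ended it (adjusted p up to 0.13 for each gene). The call of Gclc ended without control replicates 2, 5 or 6 or KO replicates 2, 3 or 5 (adjusted p 0.052 to 0.13) and that of Nfe2l2 without KO replicate 1 (adjusted p = 0.063). A fit of the HFD groups alone called 1 gene, Nfe2l2.

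Nqo1 was 4.47, 4.26, 2.86, 8.43 and 5.29 CPM in the HFD knockouts and 6.03 to 10.3 in controls (median 6.75). Replicate 4 lay among the controls and the other 4 lay below all of them, so that the log2 fold change moved from -0.59 ± 0.25 (adjusted p = 0.15) to -0.87 ± 0.24 (adjusted p = 0.013) without it. Keap1 moved from 0.13 ± 0.08 (adjusted p = 0.32) to 0.20 ± 0.07 (adjusted p = 0.039).

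The Clec16a libraries carry the lane numbers 7 and 8. Within lanes 7 and 8 the differences of mean log2 CPM on HFD were 0.57 and 0.70 for Hmox1, 0.55 and 0.22 for Srxn1, 0.19 and 0.41 for Gclc and -0.31 and -0.27 for Nfe2l2. On RFD lane 8 held 1 knockout, and the differences were 0.40 and 0.42 for Gclc and 0.38 and 0.62 for Srxn1. All kept the sign of the pooled value.

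**Figure D3:**
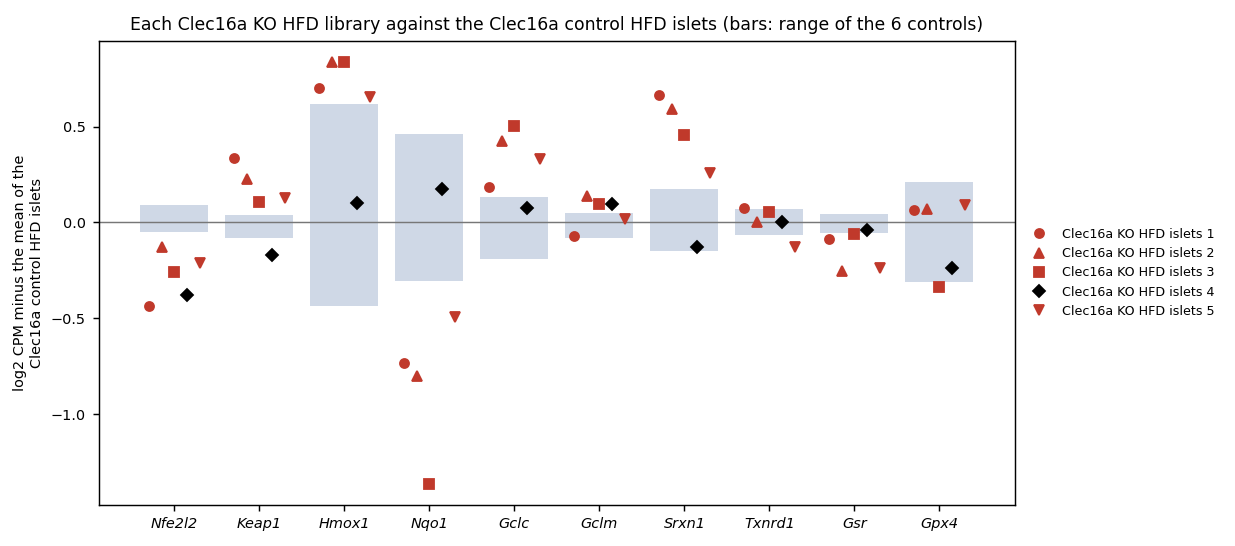
Log2 CPM of each Clec16a KO HFD library (replicate 4 as a black diamond, the others in red) minus the mean of the 6 HFD controls, whose range is the grey bar, for each of the 10 genes. Replicate 4 lies within the control range for Hmox1, Srxn1, Gclc and Nqo1, where the other 4 libraries lie outside it, and with the other knockouts for Nfe2l2.

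Endothelial markers moved with the Clec16a genotype. Of 8 such markers 6 were called higher on each diet, and their sum was 603 to 736 CPM in KO RFD against 376 to 412 in controls, and 405 to 702 in KO HFD, lowest in replicate 4, against 352 to 458. Of 7 fibroblast markers 2 were called higher on RFD and 4 on HFD. Of 9 beta cell markers 2 were called lower on each diet. The part of these cells in the differences was not tested. Macrophage markers summed to 127 to 186 CPM in KO RFD and 182 to 214 in controls, and to 124 to 219 in KO HFD and 130 to 233 in controls.

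No difference between the diets was detected in the 10 genes. HFD against RFD called 0 of the 10 in controls and 0 in knockouts by edgeR, beside 0.0406% and 0.0116% of all genes tested. The largest estimate was 0.34 ± 0.26 for Nqo1 in controls, with a 95% interval from -0.21 to 0.89 (log2). For Hmox1 the interval ran from -0.23 to 0.61 in controls and from -0.33 to 0.52 in knockouts.

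The interaction of genotype and diet was called for 0 of all genes by edgeR, with 406 at an unadjusted p under 0.05 and up to 20 called under other settings. Without KO HFD replicate 4 neither the diets in knockouts nor the interaction gave a call among the 10 genes. Among the 10 genes its estimates lay between -0.13 (Nqo1, SE 0.38) and 0.04 (Gclm, SE 0.11). The calls on HFD and not on RFD were thus not shown to differ between diets.

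Of 31 further NRF2 targets in Clec16a islets, 2 were called higher and 2 lower on RFD (6.45% each, beside 3.99% and 3.54% of all genes tested), and 3 higher and 2 lower on HFD (9.68% and 6.45%, beside 5.62% and 3.95%). Without KO HFD replicate 4 the HFD counts were 5 and 5, or 16.1% each, beside 10.5% and 9.53% of all genes. Slc7a11 rose by 3.74 ± 0.77 on RFD and 4.46 ± 0.66 on HFD, or 4.78 ± 0.41 without replicate 4. Replicate 4 was set apart partly by its low Slc7a11, so the last value is not independent of that choice. Ftl1 fell by 0.77 (SE 0.13) and 0.75 (SE 0.11), or by 0.90 (SE 0.08) on HFD without replicate 4, which was the opposite direction to Tfam KO islets, though that difference was not tested. Osgin1 rose on RFD (0.66 ± 0.18) and the ferritin heavy chain Fth1 fell on HFD by 0.35 (SE 0.09), or by 0.36 (SE 0.09) without replicate 4.

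Among regulators and partners, Bach2, a relative of Bach1 found mainly in lymphocytes, was the only gene called of 15, and it rose on both diets (1.94 ± 0.47 and 2.07 ± 0.39, the latter 2.33 ± 0.33 without replicate 4, where 4 of the 15 were called higher). Bach1 was at -0.36 ± 0.14 on RFD (adjusted p = 0.13) and 0.03 ± 0.12 on HFD, and Sqstm1 at 0.05 ± 0.11 and 0.09 ± 0.10. In the glutathione list 3 of 19 were called higher (15.8%) and 2 lower (10.5%) on each diet, with the same counts on HFD without replicate 4. Chac1 was at 2.20 ± 0.43 on RFD and 2.17 ± 0.36 on HFD (2.43 ± 0.27 without replicate 4). Among 26 other antioxidant enzymes on HFD, 4 were called higher and 2 lower, and 5 and 2 without replicate 4. Txnip rose there by 2.03 ± 0.34 and Sesn2 by 0.91 ± 0.18, or by 2.28 ± 0.26 and 1.09 ± 0.14 without that library.

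In Mfn DKO livers Hmox1 rose 1.95-fold and Gclc rose 1.64-fold. In all, 2 of the 10 genes were called, both higher, beside 9.87% of the 17024 genes tested (5.23% higher). Nfe2l2, Keap1 and Gsr lay at the level of the controls. Mfn1 and Mfn2 themselves were at 15.6 to 25.4 and 32.3 to 45.1 CPM in the DKO livers, and at 67.8 to 88.3 and 113 to 191 in controls.

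Hmox1 ran from 18.2 to 28.3 CPM in the 6 control livers (median 24.6) and was 46.5, 47.7, 33.3 and 56.8 in the DKO replicates 1 to 4. The log2 fold change was 0.96 ± 0.20 (adjusted p = 0.013, edgeR), called without any 1 library. Gclc ran from 192 to 232 CPM in controls (median 199) and was 352, 315, 428 and 262 in the DKO livers. Its log2 fold change was 0.71 ± 0.17 (adjusted p = 0.023), lost without control replicate 6 or DKO replicates 1 or 3 (adjusted p 0.054 to 0.076).

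Srxn1 also separated the groups, from 32.1 to 36.6 CPM in controls (median 34.2) to 44.9, 69.6, 67.0 and 42.9 in the DKO livers. It did not pass in the fit of all 13 livers (0.71 ± 0.35, adjusted p = 0.20). Groups did not overlap for 3 of the 10 genes, beside 19.2% of all genes tested. When the fit held the control and DKO livers only, and so left out the spread of the Tfam KO livers, 5 genes were called higher: Hmox1, Gclc, Srxn1 (adjusted p = 0.0035), Nqo1 (adjusted p = 0.040) and Gpx4 (adjusted p = 0.020). The share of all genes called in that fit is not given here. Over all genes, alternatives other than leaving out a library called 169 to 4338, beside 1681 in the fit of all 13 livers.

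Nqo1 was 10.2, 16.3, 15.2 and 12.7 CPM in the DKO livers and 4.30 to 11.2 in controls (0.70 ± 0.33). Gpx4 was 252, 292, 291 and 239 CPM in the DKO livers and 189 to 254 in controls (0.38 ± 0.16). Gclm went the other way from Gclc, with 233, 189, 206 and 201 CPM in the DKO livers and 221 to 280 in controls, but did not pass (-0.25 ± 0.21, adjusted p = 0.46). Keap1 lay between 49.9 and 50.5 CPM in all 4 DKO livers, within the control range of 46.9 to 53.9.

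The labels give no sex for the livers. By the RNA of Xist, 3 of the 6 controls, 2 of the 4 DKO and 2 of the 3 Tfam KO livers were high. Within high and low livers the DKO difference of mean log2 CPM was 0.94 and 0.97 for Hmox1 and 0.47 and 0.92 for Gclc. Macrophage markers summed to 520 to 981 CPM in DKO livers and 408 to 748 in controls, with 0 of 10 called, and Kupffer cell markers to 476 to 1107 and 357 to 654, with 1 of 5 called higher. Hepatocyte markers summed to 82835 to 101292 CPM in DKO livers and 99781 to 146216 in controls, with 1 of 8 called higher. The part of these cells in the differences was not tested.

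Of 34 further NRF2 targets in Mfn DKO livers, 4 were called higher and 4 lower (11.8% each), beside 5.23% and 4.64% of all genes tested. Gstm3 (1.58 ± 0.29) and Htatip2 (1.33 ± 0.27) rose, while Blvrb, a biliverdin reductase, and thioredoxin itself, Txn1, fell by 0.71 (SE 0.11) and 0.58 (SE 0.10). The 16 regulators and partners held 0 calls by edgeR. In the glutathione list 4 of 19 rose (21.1%) and 1 fell (5.26%). Slc25a39 (0.70 ± 0.15) and Slc3a2, the partner chain of Slc7a11 (1.10 ± 0.25), were among the higher. The metallothioneins Mt2 (3.88 ± 0.78) and Mt1 (2.65 ± 0.70) rose in the list of other antioxidant enzymes, and the peroxiredoxins Prdx5 and Prdx6 fell by 0.71 (SE 0.14) and 0.66 (SE 0.17).

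In Tfam KO livers more of the genes were called. Srxn1 rose about 4-fold and Hmox1 about 3-fold, and Gpx4, Gclc, Gsr and Txnrd1 rose by less than 1.7-fold. In all, 6 of the 10 genes were called, each higher, beside 29.3% of the genes tested (18.1% higher). The 3 livers did not behave alike, and the calls are given below with each left out. This comparison and that of the Mfn DKO livers share their 6 controls.

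Srxn1 was 173, 238 and 35.9 CPM in Tfam KO livers 1, 2 and 3. The control range was 32.1 to 36.6, so livers 1 and 2 lay far above it and liver 3 inside it. The log2 fold change was 2.12 ± 0.37 (adjusted p = 0.0023), 2.0, 1.61 and 2.57 without livers 1, 2 and 3, and called each time.

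Hmox1 was 49.9, 92.1 and 48.6 CPM, and all 3 livers exceeded the highest control at 28.3. The log2 fold change was 1.43 ± 0.22 (adjusted p = 0.0012), and 1.06 ± 0.19 without liver 2 (adjusted p = 0.0052). Gpx4 was 316, 473 and 251 CPM against 189 to 254 in controls, where liver 3 overlapped control replicate 6. It rose by 0.75 ± 0.18 (adjusted p = 0.0087), and by 0.46 ± 0.14 without liver 2 (adjusted p = 0.047). Transcripts of the pseudogene Gpx4-ps2 could share reads with Gpx4.

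Gclc was 409, 329 and 221 CPM, with liver 3 inside the control range of 192 to 232 (0.63 ± 0.19, adjusted p = 0.025). The call was lost without liver 1 (adjusted p = 0.15), liver 2 (adjusted p = 0.069) or control replicate 6 (adjusted p = 0.051). Gsr was 94.4, 142 and 71.4 CPM against 58.3 to 79.9 (0.58 ± 0.17, adjusted p = 0.026). Without liver 2 its log2 fold change fell to 0.27 ± 0.14 (adjusted p = 0.22), and the call also ended without control replicates 1, 4 or 5 (adjusted p of 0.052 or above).

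Txnrd1 was 221, 251 and 156 CPM against 134 to 176 (0.42 ± 0.15, adjusted p = 0.047). It kept its call only without liver 3, and lost it without any other 1 library (adjusted p 0.054 to 0.24). Liver 3 lay inside the control range in each of Srxn1, Gpx4, Gclc, Gsr and Txnrd1, and outside it in Hmox1.

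The other genes turned on liver 2. Nfe2l2 was 49.3, 149.5 and 55.0 CPM in the 3 livers against 58.4 to 79.6 in controls: livers 1 and 3 lay below all controls and liver 2 above them. The log2 fold change of 0.33 ± 0.27 became -0.36 ± 0.14 without liver 2 (adjusted p = 0.096). Nqo1 was 8.39, 27.3 and 9.10 CPM against 4.30 to 11.2, and its log2 fold change of 0.83 ± 0.35 (adjusted p = 0.090) became 0.06 ± 0.28 without liver 2.

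Gclm was 187, 86.3 and 224 CPM against 221 to 280 (-0.57 ± 0.23, adjusted p = 0.077). On the authors' TPM this ratio was -0.03, below the shift of all genes. Keap1 was 41.9, 32 and 46.5 CPM, and all 3 livers lay below the lowest control at 46.9 (-0.30 ± 0.11, adjusted p = 0.0502); on the authors' TPM it was 0.29 higher, again below the shift of all genes. Hmox1 and Keap1 were the genes whose groups did not overlap, beside 20.9% of all genes tested.

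Leaving out liver 2 left 3 genes called (Hmox1, Srxn1 and Gpx4), and leaving out liver 1 left 5, with Nqo1 among them. Of all genes, 8.51% were called higher and 5.95% lower without liver 2, and 13.4% and 5.72% without liver 1. Without liver 3, 9 genes were called: 7 higher, Nqo1 included, and 2 lower, which were Gclm (-0.87 ± 0.24, adjusted p = 0.011) and Keap1 (-0.44 ± 0.11, adjusted p = 0.0066). Calls rose over all genes too in that fit, to 22.8% higher and 19% lower. Liver 2 had the lowest sum of hepatocyte markers and liver 3 the highest of the 3, and 4 of 8 such markers were called lower. The part of that loss in the 10 genes was not tested. Macrophage markers summed to 253 to 717 CPM in these livers, highest in liver 3, beside 408 to 748 in controls.

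**Figure D4:**
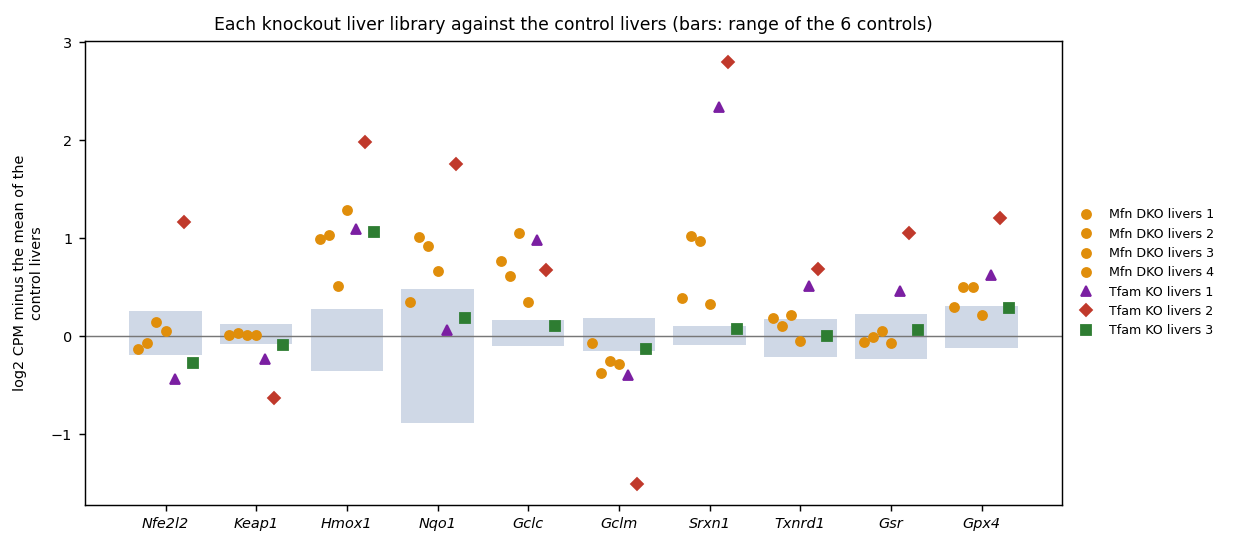
Log2 CPM of each knockout liver minus the mean of the 6 control livers, whose range is the grey bar, for each of the 10 genes; circles are the 4 Mfn DKO livers, and the triangle, diamond and square are Tfam KO livers 1, 2 and 3. Of the 3 Tfam KO livers, liver 2 lies farthest from the controls in every gene but Gclc, and liver 3 leaves the control range in Hmox1 and, by little, in Nfe2l2 and Keap1.

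By Xist, Tfam KO livers 2 and 3 were high and liver 1 was low. Within high and low livers the difference from controls of the same kind was 1.31 and 1.31 for Hmox1, 1.40 and 2.38 for Srxn1 and 0.77 and 0.59 for Gpx4, with 1 knockout among the low. That of Nfe2l2 was 0.43 and -0.43.

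Of 34 further NRF2 targets in Tfam KO livers, 15 were called higher (44.1%) and 6 lower (17.6%), beside 18.1% and 11.3% of all genes tested. Without livers 1, 2 and 3 in turn, 13, 10 and 17 were called higher, beside 13.4%, 8.51% and 22.8% of all genes, and 5, 5 and 7 lower. Slc7a11 gave 2 to 4 reads in each control liver and 138, 10391 and 6 reads in livers 1, 2 and 3, or 2.26, 134.9 and 0.134 CPM. Htatip2 (1.85 ± 0.28), the export pump Abcc4 (4.49 ± 0.70), the glutathione transferase Gsta1 (6.02 ± 0.98) and Me1 (1.2 ± 0.36) rose. Without liver 2 these were 1.29 ± 0.23, 3.72 ± 0.69, 3.84 ± 0.79 and 0.89 ± 0.39, and the call of Me1 was lost without liver 1 (adjusted p = 0.051) or liver 2 (adjusted p = 0.15). Prdx1 (-0.11 ± 0.15) and G6pdx (0.08 ± 0.17) did not pass.

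Among 16 regulators and partners 3 were called higher and 3 lower (18.8% each). Sqstm1 (1.34 ± 0.25) and the small MAF gene Mafk (1.01 ± 0.23) rose, and Mafg, another small MAF, fell by 0.53 (SE 0.15), as did Dcaf11 by 1.04 (SE 0.25) and Syvn1 by 1.03 (SE 0.26). Without liver 2, 2 were called higher and 1 lower: Sqstm1 was at 1.28 ± 0.27, Mafk at 0.51 ± 0.16 and Dcaf11 at -0.71 ± 0.16, while Mafg (adjusted p = 0.088) and Syvn1 (adjusted p = 0.060) lost their calls. Mafg also lost its call without liver 1 (adjusted p = 0.0503), where Sqstm1 was at 0.97 ± 0.23.

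In the glutathione list 6 of 19 were called higher (31.6%) and 4 lower (21.1%), and 4, 3 and 7 higher and 1, 2 and 5 lower without livers 1, 2 and 3, with Slc3a2 at 1.65 ± 0.27 and Gstk1 at -1.64 ± 0.27. Of 26 other antioxidant enzymes 5 rose (19.2%, near the 18.1% of all genes) and 8 fell (30.8%), and without liver 2 these counts were 3 and 6. Gpx3 was 3.68 to 5.98 CPM in controls and 12.6 to 769 in the knockouts, and Prdx6 fell by 0.97 (SE 0.19). Slc3a2, Gstk1, Gpx3 and Prdx6 were called without each of the 3 livers.

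**Figure D5:**
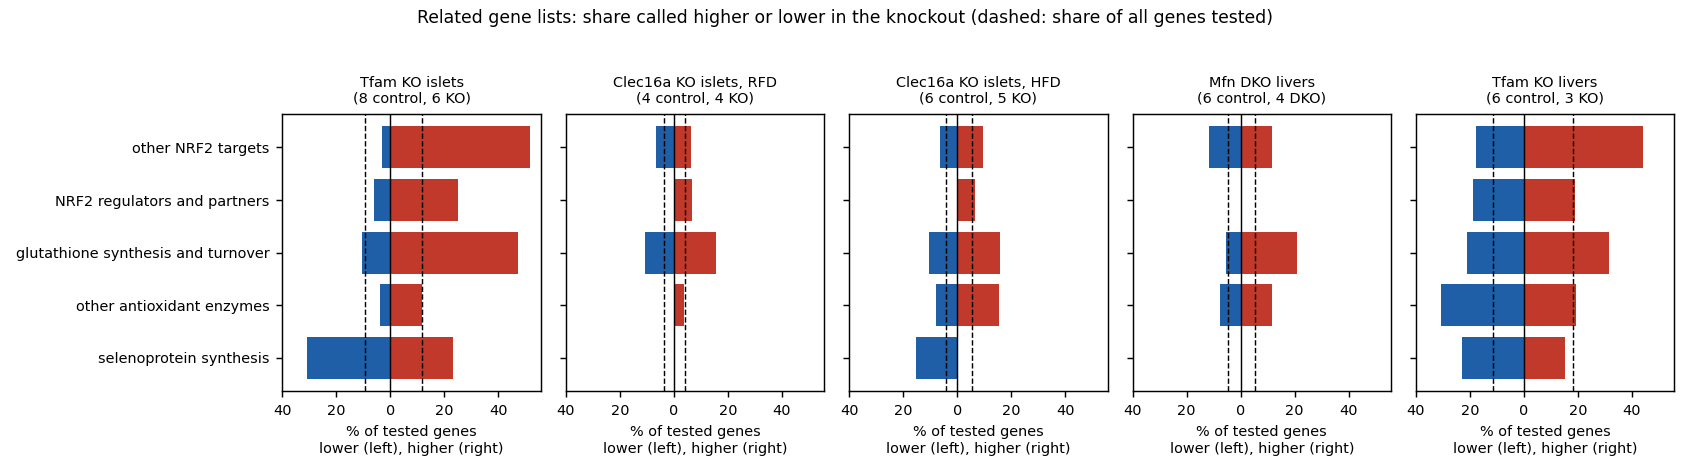
Share of the tested genes of 5 related lists called higher (red, right) or lower (blue, left) by edgeR in each comparison, with dashed lines at the share of all genes tested. The further NRF2 targets reach 16 of 31 higher in Tfam KO islets and 15 of 34 in Tfam KO livers, and 2 to 4 in the other comparisons.

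Set against each other, Tfam KO and Mfn DKO livers gave 0 calls among the 10 genes by edgeR, beside 0.294% of all genes tested, with 3 at an unadjusted p under 0.05 (Srxn1, Gsr and Keap1) and 1 called by DESeq2's Wald test (Srxn1, adjusted p = 0.025). Srxn1 had the largest estimate, 1.41 ± 0.42 (adjusted p = 0.11). Without liver 1 or without liver 2 edgeR again gave 0 calls, and without liver 2 the log2 fold changes were 0.90 for Srxn1, 0.30 for Gsr, 0.08 for Gpx4, 0.16 for Txnrd1 and -0.18 for Keap1. Without liver 3, 5 genes were called: Srxn1 (1.87 ± 0.19), Gsr (0.81 ± 0.17), Gpx4 (0.55 ± 0.18) and Txnrd1 (0.48 ± 0.14) higher and Keap1 lower (-0.44 ± 0.12). The 0.294% above is the share with all libraries kept, or 50 genes. Over all genes, fits with 1 library left out called between 24 and 4204.

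Over the 5 comparisons of a knockout with its controls, Hmox1 and Gclc were each called higher in 4 and had a positive estimate in all 5. Hmox1 missed the threshold in Clec16a KO islets on RFD and Gclc in Tfam KO islets. With 1 library left out, Gclc kept its call in 2 of 8 fits on RFD and 5 of 11 on HFD. It did so in 7 of 10 for Mfn DKO livers and 6 of 9 for Tfam KO livers. Hmox1 kept its call in every such fit for Tfam KO islets and both kinds of knockout liver, but in 3 of 11 on HFD. The share of all genes with as many calls was not counted. Srxn1 was called higher in 3, Txnrd1 in 2 and Gclm, Gsr and Gpx4 in 1 each. Nqo1 and Keap1 were called in none, and Nfe2l2 once, lower. The liver comparisons share controls, so these are not 5 independent observations.

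For Gclc and Gclm, the 2 subunits of one enzyme, the ratio of Gclc to Gclm in the authors' TPM was higher in the knockout livers. Gclm did not pass in either liver comparison, and the ratio itself was not tested. It was 1.41 ± 0.10 in control livers (SD, n = 6), 2.74 ± 0.54 in Mfn DKO livers (n = 4) and 3.66, 6.37 and 1.65 in Tfam KO livers 1, 2 and 3. No control liver was above 1.55, so every knockout liver of both kinds exceeded all controls. In female Tfam islets it was 0.590 ± 0.083 in controls (n = 5) and 0.556 ± 0.020 in knockouts (n = 4), and these overlapped. In male Tfam islets it was 0.785 to 0.799 in 3 controls and 0.640 and 0.681 in 2 knockouts, which lay below all controls. In Clec16a islets on RFD it was 0.861 ± 0.041 in controls (n = 4) and 1.11 ± 0.14 in knockouts (n = 4), with every knockout above every control. On HFD it was 0.981 ± 0.099 in controls (n = 6) and 1.17 ± 0.12 in knockouts (n = 5), where replicate 4, at 0.964, lay inside the control range. The share of other gene pairs whose ratio separates the groups was not counted. For single genes, groups did not overlap in CPM, in either direction, for 45.6% in male Tfam islets and 15.1% on RFD. In livers this share was 19.2% for Mfn DKO and 20.9% for Tfam KO against controls. The exon overlaps of Gclm named above touch each of these ratios.

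How alike the genes moved was described over the 46 libraries as Pearson's r of log2 CPM after subtraction of the mean of the matching controls. These points share libraries, depth and groups. Among the 45 pairs of the 10 genes, Txnrd1 and Gsr were most alike (r = 0.79) and Gclm and Srxn1 most opposed (r = -0.76). Without Tfam KO liver 2 these values were 0.66 and -0.51, and Gclc and Srxn1 were then most alike (r = 0.74). Nfe2l2 and Keap1 had r = -0.61, which became -0.25 without that liver. Without all 3 Tfam KO livers and Clec16a KO HFD replicate 4 the 3 pairs first named had r = 0.55, -0.39 and 0.68, and Nfe2l2 and Keap1 had r = -0.58.

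Among 14504 genes tested in all 3 experiments, Lhfpl2 and Elmsan1 (r = 0.90 each) and the stress factor gene Atf3 (0.88) were most like Hmox1. Without Tfam KO liver 2 these were 0.90, 0.90 and 0.88, and without all 4 libraries 0.91, 0.90 and 0.92. Tes, Nomo1 and Tpm1 (0.93 each) were most like Srxn1, and without all 4 libraries they had r = 0.79, 0.83 and 0.81. Exoc2 was most like Txnrd1 (0.90, or 0.81 without the 4 libraries) and Sdc2 most like Gclm (0.91, or 0.75). Peg3 was most like Nfe2l2 (0.80), but without Tfam KO liver 2 its r was 0.48 and 226 genes were more like Nfe2l2.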

How the data were processed

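RNA counts of 46 libraries were analysed, 151 bases read at both ends per the labels. The authors deposited, per gene, raw counts, TPM and CPM, per the file headers. The submitters' processing notes name STAR 2.6.1b, RSEM 1.3.1, featureCounts, DESeq2 and GRCm38; which tool made the counts is not given in the sources used here. The deposited CPM equal the count over the library total, and the deposited TPM have the same sum in each library. GENCODE M21, on the same build, held 55141 of the identifiers.

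Labels gave the groups. Separate fits were made for Tfam islets, Clec16a islets and livers with edgeR 4.0.16 in R 4.3.3 (quasi-likelihood F-test, TMM, filterByExpr by group, two-sided, Benjamini-Hochberg over all genes tested), 1 mean per group, with sex as an added term for Tfam islets over both sexes; 12 comparisons were made. Calls needed an adjusted p no greater than 0.05, and all 10 genes passed the filter in each experiment. SE is the log2 fold change over the square root of F, and 95% intervals use the t distribution with the degrees of freedom of that test. Log2 CPM used a prior count of 2. The number of counts limits precision, and reads carry no molecular identifiers.

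Alternatives were DESeq2 1.42.0 (size factors, Wald test), no filter, at least 10 counts in every sample, each library left out, the compared groups alone, a replicate block, covariates (exocrine score, lane, Xist), no sex term and the authors' TPM. Related lists and correlations without single libraries were added after seeing the data. The named genes are the 10, at most 4 per list with the smallest adjusted p, Slc7a11, Me1, Prdx1, G6pdx, Mafg, Bach1, Sqstm1 and Chac1, and the targeted genes. The 10 genes and the lists were chosen with earlier results of these data known. The procedure was tested on simulated data.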

Additional observations from a re-analysis of the deposited data

Results flagged for a closer look

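In 7 of 80 combinations of gene and group with 4 to 10 libraries, 1 library stood far from its group, beside the 1 in 20 that chance gives. These were Nfe2l2 in Clec16a control RFD replicate 2 (46.2 CPM, below the other 3), Keap1 in Mfn DKO liver 2 (50.5 CPM, above the other 3), and Gclm in Tfam KO female replicate 2 (107 CPM, below the other 3). Txnrd1 was high in Tfam control female replicate 3 (192 CPM) and in Clec16a KO RFD replicate 4 (133 CPM). Gpx4 was high in Tfam control female replicate 4 (93.6 CPM) and in control liver 6 (254 CPM).

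Under Tfam loss the estimates for Gclm had opposite signs in the 2 tissues. Its log2 fold change was 0.32 in islets, with every knockout above every control, and -0.57 in livers, with every knockout below the control mean. The difference between tissues was not tested.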

How the results depend on the processing

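No called difference of the 10 genes changed direction under any alternative. Of the values of called genes under alternatives, 281 stayed on the same side of the threshold and 76 did not. The number of genes called moved by more than 1.5 times as follows. With the replicate block, it was 1 in males for Tfam islets, 1 for Clec16a islets on RFD, 1 on HFD, 0 for Mfn DKO livers and 1 for Tfam KO livers; it stayed within 1.5 times elsewhere. DESeq2's Wald test gave 4 on RFD and 1 for Tfam KO against Mfn DKO livers. On RFD, the exocrine score and no filter each gave 1. The compared groups alone gave 1 on HFD and 5 for Mfn DKO livers. Calls over all genes moved too. Alternatives other than leaving out a library called 1245 to 2708 in males, 978 to 1843 on RFD and 975 to 2128 on HFD. For Mfn DKO livers they called 169 to 4338, for Tfam KO livers 395 to 5884 and between knockout livers 6 to 1087. Same-numbered libraries were little alike: their median correlation was 0.0653, -0.0163 and 0.0873 in Tfam islets, Clec16a islets and livers, with 2 of 6, 3 of 25 and 5 of 10 pairs over 0.1. The median of other-numbered libraries was -0.0111, -0.0123 and -0.045, and same-numbered livers reached 0.35. These values do not settle whether replicate numbers pair the libraries.

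Leaving out each library in turn gave 2 to 6 called genes for Tfam islets, 2 to 4 in females, 1 to 2 in males, 0 to 2 for Clec16a on RFD, 1 to 6 on HFD, 1 to 2 for Mfn DKO livers, 3 to 9 for Tfam KO livers and 0 to 5 between the knockout livers. Over all genes the same fits called 3096 to 4995 for Tfam islets, 1336 to 2626 in females and 578 to 1543 in males. On RFD they called 523 to 1224 and on HFD 786 to 3369. They called 686 to 1444 for Mfn DKO livers, 2504 to 7330 for Tfam KO livers and 24 to 4204 between the knockout livers. Some uncalled values changed sign: with lane as a covariate Gpx4 on RFD was -0.03, and with Xist as a covariate Nqo1 between knockout livers was -0.08. The ranges that follow cover the 5 comparisons of a knockout with its controls and that between knockout livers. Ranges of the comparisons within a sex, between diets and of the interactions also crossed 0 for several genes and are not listed. With a library left out, the ranges that crossed 0 were -0.06 to 0.01 for Srxn1 in Tfam islets; on RFD -0.03 to 0.09 for Gclm, -0.06 to 0.05 for Txnrd1, -0.07 to 0.03 for Gsr and -0.05 to 0.12 for Gpx4; on HFD -0.02 to 0.03 for Txnrd1; in Mfn DKO livers -0.06 to 0.04 for Nfe2l2, -0.00421 to 0.03 for Keap1 and -0.08 to 0.01 for Gsr; in Tfam KO livers -0.36 to 0.61 for Nfe2l2; and between knockout livers -0.36 to 0.61 for Nfe2l2, -0.64 to 0.42 for Nqo1 and -0.30 to 0.12 for Gclc. The cause of these moves was not tested. For Tfam islets over both sexes the compared groups are all groups, so that alternative gives no separate value. Low counts limit Nqo1 and Hmox1 most, with as few as 78 and 117 reads in a library.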
